A study of Mus musculus with 6 samples.

Results

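The fibrillar collagens are the chains that assemble into the banded fibrils of skin, tendon, bone and cartilage. The members described here are 8 of the 18193 genes named on the array, Col1a1, Col1a2, Col2a1, Col3a1, Col5a1, Col5a2, Col5a3 and Col11a1. They were read by 17 of the 45037 probe sets of the array, a probe set being a group of short oligonucleotides that together report 1 transcript. A probe set was taken where the platform annotation gave exactly 1 gene symbol and that symbol was a member. Of the 17, 14 probe sets of 7 genes had a mean signal over the arrays at or above 41.0, the median of all probe sets, and were tested with the 22519 probe sets that passed this filter. The other 3, among them the single probe set of Col2a1, were not in that test.

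Messenger RNA was measured on Affymetrix Mouse430_2 arrays in primary dermal fibroblasts, the matrix-making cells of the dermis, grown as explant cultures from the skin of newborn mice. The Et1 group was 3 cultures that received 100 nM synthetic endothelin 1 (Et1), a secreted peptide of human and porcine sequence that acts on G-protein-coupled receptors, for 24 hours, and the control group was 3 cultures with no addition. Both groups came from B6 pups of mixed sex, aged 0 to 2 days per the sample labels and up to 3 days per the series text, and were at passage 6 per the sample labels, while the series text has the cells divided into a treated and an untreated culture by passage 5. The cells keep what explant outgrowth and passaging on plastic leave of the dermal population, the labels name no individual animals, and the p-values measure the spread between these arrays.

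Each fibrillar procollagen chain carries a long uninterrupted stretch of glycine-X-Y triplets and folds with partner chains into a triple helix, whose ends are cut off outside the cell before fibrils form. Collagen I joins chains encoded by Col1a1 and Col1a2 and is the bulk of the dermis, collagen III is made of Col3a1 chains alone, and collagen V, built from Col5a1 and Col5a2 and in some trimers Col5a3, sits inside collagen I fibrils and limits their width. Collagen II (Col2a1) and collagen XI (Col11a1 with partner chains) are best known from cartilage. Fibroblasts are the main source of types I, III and V in skin.

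Signals below are the deposited values scaled to a common 2% trimmed mean of 139, since the deposited trimmed means ran from 91.7 to 179. The arrays also differed in the probe sets for Bacillus transcripts, which serve as poly(A) spike-in controls when such RNA is added before labelling. The mean log2 signal of 27 of these was 3.57 on Et1 replicate 2 and 3.46 and 3.45 on control replicates 1 and 2, called the low set, and was 5.43 and 4.75 on Et1 replicates 1 and 3 and 5.64 on control replicate 3, called the high set. The ratio of 3' to 5' signal, a measure of RNA integrity, was 0.677 to 0.757 in Et1 arrays and 0.728 to 0.775 in control arrays for Gapdh, and 1.15 to 1.23 against 1.18 to 1.19 for Actb. Of 12 fibroblast markers 11 passed the filter and Lum did not. Of the 11 there were 8 with a lower mean in Et1 cultures, beside 45.9% of all tested probe sets, and 1 called, Prrx1, beside 0.346%. The summed signal of the fibroblast markers was 20111 to 28249 in Et1 arrays and 24948 to 31318 in control arrays. Vim overlapped at 6833 to 10130 in Et1 arrays and 7824 to 9380 in control arrays, as did Thy1 at 920 to 2288 against 2001 to 4141. Pdgfrb, at 741 to 766 in Et1 arrays and 1257 to 2155 in control arrays, and Prrx1, at 921 to 1038 against 1782 to 1923, did not overlap. Summed signals of the 8 keratinocyte markers were 420 to 573 in Et1 arrays and 380 to 620 in control arrays, with Krt5 at no more than 169. For the 5 smooth muscle and pericyte markers they were 1039 to 1566 in Et1 arrays and 2201 to 3180 in control arrays, with 4 of the 5 lower in mean and most of the sum from Cnn1, which cultured fibroblasts also express. The 3 Schwann markers on the array summed to 182 to 211 in Et1 arrays and 234 to 246 in control arrays. The part of such cells in the results was not tested.

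The 4 genes with a tested probe set whose Et1 signals all lay below the control signals were Col1a2, Col3a1, Col5a1 and Col11a1, and the sequence around their annotated starts is shown because the data bear on their transcript levels. They rest on 4 of the 14 tested probe sets, beside 8.11% of all tested probe sets apart in this direction and 9.47% in the other. Each of the 4 genes also had a tested probe set whose groups overlapped, and 0 of the 14 were called. Each window holds 250 bases before the start and 50 after it, on the plus strand of GRCm38.p6, from RefSeq, which had windows for 5 of the 8 members. Capitals mark matches, on either strand, to CCAAT (the CCAAT box), GGGCGG (the GC box) and TATAAA (the TATA box). The windows are chr6:4505368-4505667 for Col1a2, chr1:45311288-45311587 for Col3a1, chr2:27886175-27886474 for Col5a1 and chr3:114030290-114030589 for Col11a1.
Col1a2: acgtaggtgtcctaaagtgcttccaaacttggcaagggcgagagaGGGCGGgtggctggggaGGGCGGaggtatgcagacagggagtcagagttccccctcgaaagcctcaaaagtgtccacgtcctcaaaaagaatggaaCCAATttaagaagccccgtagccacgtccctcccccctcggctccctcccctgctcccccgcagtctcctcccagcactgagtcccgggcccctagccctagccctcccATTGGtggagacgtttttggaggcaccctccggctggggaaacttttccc
Col3a1: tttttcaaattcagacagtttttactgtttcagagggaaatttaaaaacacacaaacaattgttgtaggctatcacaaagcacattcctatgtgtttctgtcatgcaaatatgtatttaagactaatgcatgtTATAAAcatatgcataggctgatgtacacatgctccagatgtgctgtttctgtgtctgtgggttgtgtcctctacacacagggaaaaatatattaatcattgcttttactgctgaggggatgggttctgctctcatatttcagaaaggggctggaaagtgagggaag
Col5a1: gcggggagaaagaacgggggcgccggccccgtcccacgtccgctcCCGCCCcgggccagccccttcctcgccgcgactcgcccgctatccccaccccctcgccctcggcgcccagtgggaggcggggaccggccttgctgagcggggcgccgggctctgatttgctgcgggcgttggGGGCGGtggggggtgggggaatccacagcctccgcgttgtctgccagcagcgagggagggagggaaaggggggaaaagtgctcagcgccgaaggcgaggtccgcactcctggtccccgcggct
Col11a1: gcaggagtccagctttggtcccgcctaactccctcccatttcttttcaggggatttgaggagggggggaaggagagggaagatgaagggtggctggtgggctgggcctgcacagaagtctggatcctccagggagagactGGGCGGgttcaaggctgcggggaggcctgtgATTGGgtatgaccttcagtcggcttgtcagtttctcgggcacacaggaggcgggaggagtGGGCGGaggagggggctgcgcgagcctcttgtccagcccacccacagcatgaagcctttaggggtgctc
The windows differ in make-up: GC content was 61.0% for Col1a2, 37.7% for Col3a1, 75% for Col5a1 and 62.3% for Col11a1, where the median over 32851 windows was 52.7%. Col1a2 held 2 CCAAT boxes, 1 of them at position -109 from the start and 1 reversed at position 1, and 2 GC boxes at -205 and -188. Col11a1 held 1 reversed CCAAT box at -79 and 2 GC boxes at -110 and -19, and Col5a1 held 2 GC boxes, reversed at -205 and forward at -73. Col3a1 held neither, and a TATA box at -117. Over all windows 37.4% had a CCAAT box, 35.7% a GC box and 13.6% a TATA box, so none of these matches sets the 4 genes apart, and these letters are a description and not a record of binding. Col3a1 also has Col5a2 as its direct neighbour on the chromosome, with 0 annotated genes between them in RefSeq. The first was among the members with the lowest ratio of Et1 to control signal and the neighbour was among those with the ratio nearest to 1.

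The comparison of Et1 with control cultures asked whether the mRNA of these chains differed after 24 hours of the peptide. The means of all 14 tested probe sets were lower in Et1 cultures, by a median of -0.81 on the log2 scale, beside a median of 0.03 over all 22519 tested probe sets, of which 45.9% were lower. Single values ran from -1.64 for a Col3a1 probe set to -0.11 for the brightest of Col5a2. In limma, with adjustment over all tested probe sets, 0 of the 14 passed 0.05, where 0.346% of all probe sets did (78, with 56 or 0.249% lower). At an unadjusted p under 0.05 there were 7 of 14, all lower and from Col1a2, Col3a1, Col5a1 and Col11a1, beside 6.38% lower and 5.94% higher over all. The 3 Et1 signals lay below the 3 control signals for 4 of the 14, beside 8.11% of all tested probe sets (9.47% were apart the other way), and 6 of the 14 had a log2 difference at or under -1, beside 1.91%. The median of the members was -1.34 without control replicate 3 and -0.53 without Et1 replicate 3. In both of these fits Col2a1 also passed the filter and was counted, at -1.76 and -0.57. These medians are thus not over the same probe sets as the -0.81. In these bulk samples less RNA per cell and a smaller share of cells that make collagen cannot be told apart.

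**Figure D1:**
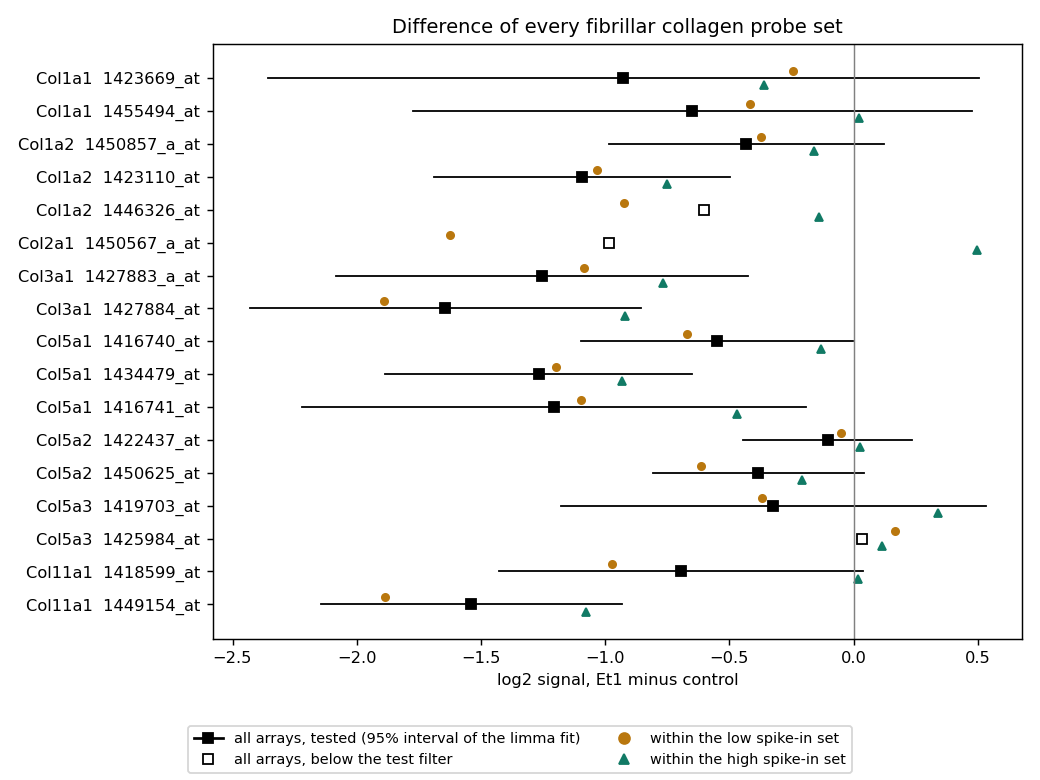
Log2 signal in Et1 minus control cultures (x axis) for each of the 17 probe sets (y axis, gene and probe set). Squares give the difference over all 6 arrays with its 95% interval from the limma fit, open squares the 3 probe sets below the filter, circles the difference within the low and triangles within the high spike-in set. The squares of the 14 tested probe sets all lie below 0, and 10 of their 14 triangles do. The highest triangle, at 0.49, is that of Col2a1, below the filter.

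Col1a1, the chain of which each collagen I molecule carries a pair, varied more between arrays than between groups. Its brighter probe set, 1423669_at, read 1882, 5633 and 1159 on Et1 replicates 1, 2 and 3, and 6728, 6632 and 1897 on control replicates 1, 2 and 3. One Et1 array was thus close to the control arrays, and 1 control array was close to the other Et1 arrays, so that the groups overlapped widely. The log2 difference was -0.93 with an SE of 0.63 and a 95% interval of -2.36 to 0.50 (limma adjusted p = 0.592), and leaving out 1 array at a time moved it between -1.57 and -0.43. The second probe set, 1455494_at, was high and low on the same arrays, with 451, 734 and 246 in Et1 arrays and 936, 1025 and 328 in control arrays, and a log2 difference of -0.65 (SE 0.49, limma adjusted p = 0.632), between -1.18 and -0.24 with 1 array left out. The pooled SD between replicates of 1423669_at, 1.11 on the log2 scale, was at the 98.7th percentile of all tested probe sets.

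The arrays with low Col1a1 were those of the high spike-in set. Signals of 1423669_at were 1159 to 1897 in the 3 arrays of the high set and 5633 to 6728 in the 3 of the low set, and those of 1455494_at were 246 to 451 and 734 to 1025. With the group in the fit, the high set was at 27.3% and 39.0% of the low set for these probe sets. Within the low set, Et1 minus control was -0.25 and -0.42, and within the high set -0.36 and 0.022. Once the set entered the fit as a blocking term, the difference of 1423669_at was -0.30 (SE 0.17, limma adjusted p = 0.394). The sets share no overlap for 7 of the 14 tested probe sets of 6 genes, each lower in the high set, beside 16.6% of all tested probe sets lower and 16.3% higher. What made the sets differ was not tested.

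Col1a2, the partner chain of collagen I, was read by 2 tested probe sets that differed in size of effect. The probe set 1423110_at had signals of 1948, 2174 and 1276 in Et1 arrays and 4848, 4075 and 2656 in control arrays. All Et1 arrays lay below all control arrays, with a geometric mean at 46.9% of that of the controls. The log2 difference was -1.09 (SE 0.26, limma adjusted p = 0.137), and it was -1.03 within the low and -0.75 within the high spike-in set. The brighter probe set, 1450857_a_at, had 5129, 5191 and 3055 in Et1 arrays and 6878, 6581 and 4418 in control arrays, which overlapped, and a log2 difference of -0.43 (SE 0.24, limma adjusted p = 0.520). The remaining probe set, 1446326_at, lay below the filter at 16.4 to 20.3 in Et1 arrays and 20.4 to 35.5 in control arrays.

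Col3a1, the single chain of collagen III, which is plentiful in young and healing skin, had the lowest ratio of Et1 to control signal among the members. Its bright probe set 1427883_a_at read 1383, 1985 and 902 in Et1 arrays and 4484, 3954 and 1902 in control arrays. The highest Et1 array just passed the lowest control array, and the other 4 were apart. Its geometric mean in Et1 cultures was 41.9% of control, a log2 difference of -1.26 (SE 0.36, 95% interval -2.08 to -0.43, limma adjusted p = 0.217). The dimmer probe set 1427884_at had 65.2, 67.9 and 51.4 in Et1 arrays against 305, 207 and 110 in control arrays, with no overlap. That difference was -1.64 (SE 0.35, limma adjusted p = 0.104), or 32.0% of control. Both had the same sign within the spike-in sets, at -1.09 and -1.89 in the low set and -0.77 and -0.92 in the high set.

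**Figure D2:**
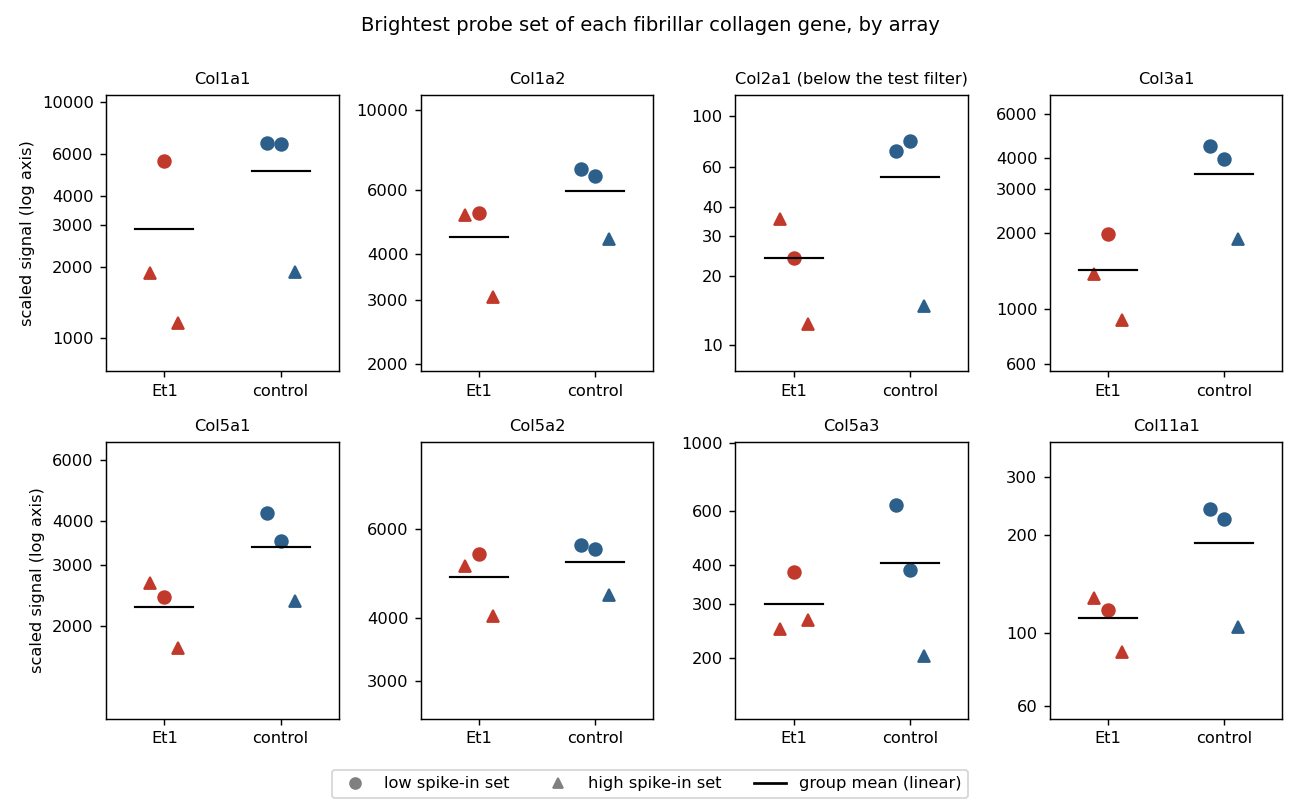
Scaled signal (y axis, log scale) of the brightest probe set of each gene in the 3 Et1 and the 3 control arrays, circles for arrays of the low and triangles for arrays of the high spike-in set, with a line at the linear mean of each group. Col1a1 follows the shape of the marker, with triangles at 1159 to 1897 and circles at 5633 to 6728, while Col5a2 stays between 4043 and 5589.

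Collagen V showed unlike values for its chains. Col5a1, the chain present in nearly all collagen V trimers, had 3 tested probe sets. Of these 1434479_at had 591, 677 and 404 in Et1 arrays and 1797, 1346 and 933 in control arrays, without overlap, the geometric mean being 41.5% of control (log2 difference -1.27, SE 0.27, limma adjusted p = 0.107). The probe set 1416741_at had 199, 381 and 195 in Et1 arrays and 912, 728 and 273 in control arrays, where Et1 replicate 2 was above control replicate 3, and a log2 difference of -1.21 (SE 0.45, limma adjusted p = 0.329). The brightest, 1416740_at, read 2661, 2422 and 1726 in Et1 arrays and 4234, 3511 and 2351 in control arrays, a log2 difference of -0.55 (SE 0.24, limma adjusted p = 0.405). All 3 had the same sign within the low set (-1.20, -1.10 and -0.67) and the high set (-0.93, -0.47 and -0.13).

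Col5a2, the other main chain of collagen V, had the smallest differences of the members' brightest tested probe sets. Signals of 1422437_at were 5084, 5349 and 4043 in Et1 arrays and 5589, 5495 and 4454 in control arrays. These overlapped, with a log2 difference of -0.11 and a 95% interval of -0.45 to 0.24 (limma adjusted p = 0.810), and the value was 0.017 without Et1 replicate 3. The dimmer 1450625_at had 590, 464 and 544 in Et1 arrays and 866, 584 and 655 in control arrays, a log2 difference of -0.38 with a 95% interval of -0.81 to 0.04 (limma adjusted p = 0.453). Col5a3, a chain of fewer tissues, had 249, 382 and 265 in Et1 arrays and 630, 386 and 203 in control arrays for 1419703_at. Its log2 difference of -0.32 had a 95% interval of -1.18 to 0.53 (limma adjusted p = 0.763), was 0.066 without control replicate 1, and was -0.37 within the low and 0.34 within the high set. The other Col5a3 probe set, 1425984_at, read 2.32 to 7.86 over all arrays and was not tested.

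Col11a1, a chain of collagen XI that nucleates thin cartilage fibrils and pairs with collagen V chains in other tissues, had low signals with a large difference in 1 probe set. For 1449154_at they were 64.2, 54.8 and 64.6 in Et1 arrays and 266, 154 and 136 in control arrays. The groups were apart, the Et1 arrays lay close together, and the geometric mean was 34.4% of control. The log2 difference of -1.54 (SE 0.27, 95% interval -2.14 to -0.93) had the smallest adjusted p of the members (limma adjusted p = 0.0615). With 50 added to each signal, which damps dim probe sets, the difference was -1.04. The other probe set, 1418599_at, had 128, 118 and 87.9 in Et1 arrays and 240, 224 and 105 in control arrays, with overlap, and a log2 difference of -0.69 (SE 0.32, limma adjusted p = 0.431). Within the low and the high set the differences were -1.89 and -1.08 for the first and -0.97 and 0.018 for the second.

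Col2a1, the chain of cartilage collagen II, lay below the filter. Its 1 probe set had 35.5, 24.0 and 12.3 in Et1 arrays and 70.5, 77.8 and 14.8 in control arrays. Signals above 50 were seen in 2 control arrays alone, both of the low set, and the groups overlapped. Of the 8 cartilage markers 3 passed the filter: Sox9 at 44.8 to 161 in Et1 arrays and 97.1 to 160 in control arrays, Comp at 34.8 to 124 against 60.2 to 94.8, and Col9a1 at 69.9 to 111 against 77.0 to 100, all with overlap. Among the 5 below the filter, Acan was at 26.4 to 48.5 in Et1 arrays and 26.0 to 45.8 in control arrays, and Matn1 at no more than 26.1. The summed signal of the 8 markers was 384 to 475 in Et1 arrays and 412 to 472 in control arrays.

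Across arrays the tested probe sets were high and low together. Control replicate 1 was the highest of the 6 arrays for 13 of the 14, and Et1 replicate 3 was the lowest for 11. Relative to the mean of each probe set over the arrays, the median of the members was -0.40, -0.12 and -0.83 on Et1 replicates 1, 2 and 3 and 0.93, 0.67 and -0.17 on control replicates 1, 2 and 3. The medians of all tested probe sets stayed between -0.013 and 0.046. Control replicate 3 was the lowest control array for 13 of the 14 and lay on the Et1 side of the others. Without it limma called 6 of the 14, each lower, beside 0.635% of all probe sets called lower. The members' median in that fit was -1.34, counting Col2a1 (-1.76, not called), which passed the filter there. As this array stood out by the members' own values, a larger difference follows from leaving it out. With any other array left out limma called 0 of the 14.

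**Figure D3:**
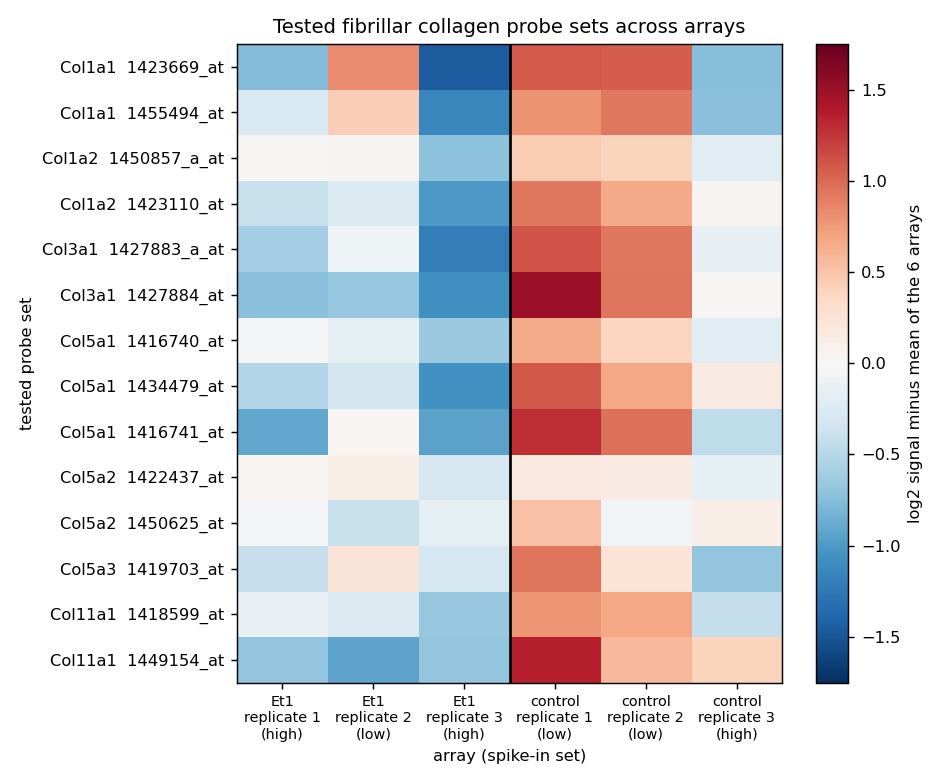
Log2 signal minus the mean of the 6 arrays (colour) for the 14 tested probe sets (rows) in the Et1 and the control arrays (columns, with the spike-in set in parentheses). Control replicates 1 and 2 are above the mean for nearly all rows, with medians of 0.93 and 0.67, and Et1 replicate 3 is below it in all 14, with a median of -0.83.

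In a second fit that took the spike-in set as a term, chosen with these data in view, limma called 6 of the 14, all lower, beside 2.47% called lower and 1.39% called higher over the array. These were 1423110_at of Col1a2 (log2 difference -0.89, limma adjusted p = 0.02), both probe sets of Col3a1 (-0.93 and -1.41, limma adjusted p = 0.0163 and 0.0195), 1434479_at and 1416741_at of Col5a1 (-1.07 and -0.78, limma adjusted p = 0.0102 and 0.0266) and 1449154_at of Col11a1 (-1.48, limma adjusted p = 0.0159). All 6 were also those called without control replicate 3. That array is the 1 control of the high set and both fits use the same other arrays, so this match is not independent. No probe set of Col1a1, Col5a2 or Col5a3 was called in either fit. The median of the members was -0.44 in this fit, and -0.82 in the low set against -0.29 in the high set when each was taken alone. All 14 were lower in the low set and 10 of 14 in the high set, beside 48.5% and 45.3% of all tested probe sets. Lower in both sets were 10 of 14, beside 29.2%. The low set holds 1 Et1 and 2 control arrays and the high set 2 Et1 and 1 control array, so these values within a set have no replicate error of their own.

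Probe sets of 1 gene gave unequal differences. In 5 of the 6 members with at least 2 tested probe sets the dimmest had a lower log2 difference than the brightest, namely Col1a2, Col3a1, Col5a1, Col5a2 and Col11a1, and Col1a1 had the opposite order. Over all 5088 genes with at least 2 tested probe sets the dimmest was the lower in 54.7%. The brightest probe sets of Col1a2 and Col5a2 ranked among the brightest 1% on each array, at the 99.0th to 99.9th and the 99.4th to 99.7th percentile of signal. Whether such signals were near the top of the scanner's range was not tested. Which part of each transcript a probe set reads was not analysed here.

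**Figure D4:**
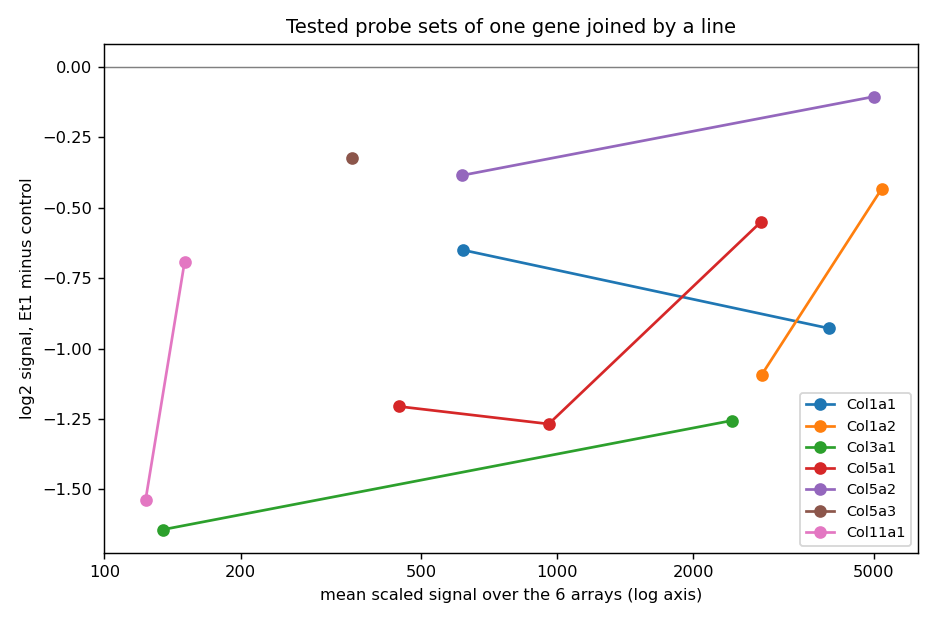
Log2 signal in Et1 minus control cultures (y axis) against the mean scaled signal over the 6 arrays (x axis, log scale) for the 14 tested probe sets, those of 1 gene joined by a line. The Col1a2 probe sets stand at -1.09 and -0.43 and the Col5a2 probe sets at -0.38 and -0.11, in each case with the brighter one nearer to 0.

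Chains that share a trimer or a fibril were compared within each array, as the log2 difference of their brightest probe sets, so that array-wide shifts cancel. Of 6 pairs, 1 had no overlap between the groups: Col5a1 minus Col5a2 was -0.93, -1.14 and -1.23 in Et1 arrays and -0.40, -0.65 and -0.92 in control arrays. Between the groups this value of the 2 chains of collagen V differed by -0.45 (exact permutation p = 0.10, the smallest p that 3 arrays against 3 allow, adjusted p = 0.60 over the 6 pairs). The difference was -0.62 within the low and -0.16 within the high set. With the probe sets of each gene averaged the difference was -0.76 and the groups overlapped (exact permutation p = 0.20). The partner chains of collagen I, Col1a1 minus Col1a2, differed by -1.45, 0.12 and -1.40 in Et1 arrays and by -0.03, 0.01 and -1.22 in control arrays. Here the arrays of the high set stood apart in both groups, and the difference between groups of -0.50 overlapped (exact permutation p = 0.40). It was 0.13 within the low and -0.20 within the high set. With the probe sets of each gene averaged it was -0.026. The pairs Col5a3 minus Col5a2, Col3a1 minus Col1a1 and Col5a1 minus Col1a1 gave -0.22, -0.33 and 0.38, all with overlap and an exact permutation p between 0.60 and 0.80. Col11a1 minus Col2a1 was 0.29, but Col2a1 lay below the filter, the value was -0.077 with 50 added to each signal, and nothing is read from it.

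The mean standardised profile of the brightest probe sets of the 7 tested members was set against 19944 other tested probe sets over the 6 arrays. The 5 most alike genes were Il6st, the shared receptor subunit of interleukin 6 family cytokines (Pearson r = 0.997), Aplp1, a relative of the amyloid precursor protein (0.995), Hdac5, a histone deacetylase (0.995), Cd99l2, a membrane protein (0.995), and Ptk7, a pseudokinase receptor of planar polarity signalling (0.994). Il6st read 312, 326 and 248 in Et1 arrays and 418, 386 and 281 in control arrays, a log2 difference of -0.28. In all, 218 probe sets had r at or above 0.95, and with 6 arrays that share the spike-in sets these values are a description.

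Genes that act on the chains were counted from lists, each gene by its brightest tested probe set, and are to be read beside the 45.9% of all tested probe sets with a lower mean and the 6.38% lower and 5.94% higher at an unadjusted p under 0.05. Of 30 tested genes of collagen assembly and processing 24 had a mean below control after Et1, the median log2 difference being -0.44, and 0 passed limma's adjusted threshold while 12 were lower and 0 higher at an unadjusted p under 0.05. In this list were Sec24d and Sec23a, coat proteins of the vesicles that carry procollagen out of the endoplasmic reticulum. Sec24d had 531, 406 and 443 in Et1 arrays and 913, 754 and 811 in control arrays, without overlap (log2 difference -0.85, limma adjusted p = 0.0805). Sec23a had a log2 difference of -0.65 (limma adjusted p = 0.0910), Pcolce, which speeds the removal of the C-propeptide, one of -0.59, and P4hb, a subunit of prolyl hydroxylase, one of -0.51.

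Among 16 tested genes of the fibril surface, 15 had lower means, with a median of -0.34, 6 were lower and 0 higher at an unadjusted p under 0.05, and 1 passed the adjusted threshold. This was Aspn, a small proteoglycan that binds collagen I, which averaged 147 ± 44.4 in Et1 cultures and 831 ± 212 in control cultures (SD, n = 3 each; limma adjusted p = 0.0143). Prelp and Ogn, of the same proteoglycan family, had differences of -2.45 and -1.92, with Et1 signals of 12.7 to 16.5 and 13.4 to 34.0, below the filter value of 41.0. Both are among the 6 and passed the filter through their control signals alone. Col12a1, which lies on the surface of collagen I fibrils, had 1021, 913 and 884 in Et1 arrays and 1983, 1509 and 1396 in control arrays, without overlap (log2 difference -0.78, limma adjusted p = 0.104).

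Of 16 tested collagen receptors and breakdown enzymes 10 had lower means, with a median of -0.11 and 0 called, 1 being higher and 4 lower at an unadjusted p under 0.05. Mmp14, a membrane collagenase, stood at -0.62, Itga1, a subunit of a collagen receptor, at -0.76, Ddr1, a receptor kinase for collagen, at -0.45, and Mmp9, a gelatinase, at 0.40. Of 28 tested regulators of collagen transcription 20 had lower means, with a median of -0.25, and 6 were lower and 0 higher at an unadjusted p under 0.05. In that list Prrx1, a mesenchymal homeobox factor, fell by 0.92 (limma adjusted p = 0.0307) as the 1 gene past the threshold. Tgfb3 and Tgfb2, ligands that raise collagen I transcription, had log2 differences of -1.41 and -1.13, and Tgfbr1, their signalling receptor, one of -0.70 (limma adjusted p = 0.0834, 0.0942 and 0.120). Tgfb3 read 329, 417 and 211 in Et1 arrays and 982, 875 and 628 in control arrays, with the groups apart. Of the fibrillar chains outside the members, Col27a1 was the 1 gene of 3 that passed the filter, with a log2 difference of -0.71 (limma adjusted p = 0.129). In the fit with the spike-in set as a term, beside 2.47% called lower and 1.39% higher over the array, limma called 4 genes of assembly and processing lower and 1 higher, 4 of the fibril surface lower, 4 regulators lower, Col27a1 lower, and 0 receptors and breakdown enzymes. The 4 of the fibril surface include Prelp and Ogn, which passed the filter through their control signals alone.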

How the data were processed

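Messenger RNA of 3 Et1 and 3 control cultures was hybridised to 1-colour Affymetrix arrays. The deposited intensity of each probe set is on a linear scale and comes from MAS5, as listed in the submitters' processing notes, which give neither version nor scaling target. Arrays were scaled to a common 2% trimmed mean, the 4 zeros replaced by the smallest signal above 0, and log2 taken with no pseudocount. The 64 Affymetrix control probe sets were left out. Groups came from the labels. The groups were compared per probe set by limma 3.58.1 under R 4.3.3 (intensity trend, no block, Benjamini-Hochberg over 22519 probe sets, threshold 0.05). This fit was also tested on simulated data. Their noise was independent between arrays and probe sets and held no shift between spike-in sets, unlike the data here. Symbols came from the platform annotation, in which 34945 probe sets had 1 symbol, 932 several and 9160 none; 34741 matched a mouse gene identifier of GRCm38.p6. No 2 arrays shared more than 0.548% identical values. The number of arrays limits the precision.

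The members, the lists and the pairs of chains were chosen with earlier results of these data known. Named genes were every member, at most 4 of each list by smallest unadjusted p, and the 5 most alike genes. The spike-in sets were split at the largest gap in the Bacillus control signals. Alternatives were quantile normalization, median centring, no filter or one at the 75th percentile, 50 added before log2, no trend, no _x_at or _s_at probe sets, each array left out, and the replicate number or the spike-in set as a block.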

Additional observations from a re-analysis of the deposited data

How the results depend on the processing

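Of 236 values of the 14 tested probe sets under the alternatives, 230 were below 0. This count holds copies of the main values. The other filters, no trend, no _x_at or _s_at probe sets and the replicate block cannot change the log2 difference. All alternatives also use the same 6 arrays, so the count does not measure how firm the sign is. The 6 above 0 were Col5a2 1422437_at without Et1 replicate 3 (0.017, range over left-out arrays -0.21 to 0.017), Col5a3 1419703_at without control replicate 1 (0.066, range -0.75 to 0.066) and, within the high spike-in set, Col1a1 1455494_at (0.022), Col5a2 1422437_at (0.026), Col5a3 1419703_at (0.34) and Col11a1 1418599_at (0.018). The members' median stayed between -0.53 and -1.34 with each array left out, -1.34 being without control replicate 3, and was -0.29 within the high set. The medians of -0.53 and -1.34 also count Col2a1, which passed the filter in those fits but not in the main fit. Limma called 0 of the members in every alternative except the spike-in set block (6), the replicate block (5, beside 1.76% of all called lower) and leaving out control replicate 3 (6), so that leaving out an array gave 0 to 6.

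Over the whole array 78 calls became 43 with median centring, 40 with no filter, 7 with no intensity trend, 868 with the spike-in set block, 567 with the replicate block and 4 to 228 with each array left out, 228 being without control replicate 3. The cause was not tested. Over 22519 probe sets the correlation of the deviations of arrays of 1 number was -0.12, 0.44 and 0.45 for numbers 1, 2 and 3. Between an Et1 and a control array it was positive within a spike-in set (0.26 to 0.45) and negative across sets (-0.57 to -0.12). Number 1 joins arrays of unlike sets. These correlations went with the sets, so they cannot decide whether the number pairs the cultures. The series text says that cells were split into treated and untreated cultures but not that a number marks the split. The main fit thus has no block. Et1 replicates 1, 2 and 3 correlated best with control replicates 3, 2 and 3.

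The pair differences turned sign as follows: Col1a1 minus Col1a2 was 0.13 within the low set, and without a turn it was -0.037 with the spike-in set block and -1.01 to -0.23 with each array left out; Col5a3 minus Col5a2 was 0.31 within the high set and -0.54 to 0.11 with each array left out; Col3a1 minus Col1a1 was -0.53 to 0.040 with each array left out. Col5a1 minus Col1a1 was -0.10 with the spike-in set block, -0.43 within the low set and -0.22 with the probe sets of a gene averaged. Col11a1 minus Col2a1 was -0.077 with 50 added, -0.48 within the high set and -0.13 with probe sets averaged. With 50 added the difference of the dim Col3a1 1427884_at was -1.14, against -1.64 without.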
